A study of Mus musculus with 16 samples.

Results

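The comparison set CD4+ T cells of IKK2 knockout mice with nephritis against the same cells of IKK2 knockout mice without it. Its members are the 3 arrays titled as nephritic IKK2 knockout and the 3 titled as untreated IKK2 knockout, 6 of the 16 arrays of the series. All 6 came from male mice of 8 to 10 weeks that carried CD4-Cre and floxed alleles of Ikbkb, which encodes IKK2. Nephritis was induced by an intraperitoneal dose of nephrotoxic sheep serum, 2.5 mg per g of body mass, and spleens were taken on day 10; the untreated mice are labelled as having no inflammation. CD4+ T cells were enriched with a magnetic kit and then sorted, and their RNA was measured on 1-colour Agilent arrays, 1 array per sample. Another 6 arrays came from control mice labelled with CD4-Cre alone, 3 with nephritis and 3 without, and served here to ask where the response of the knockout differed. The other 4 arrays came from NEMO knockout mice, CD4-Cre with floxed Ikbkg, 2 with nephritis and 2 without, on slide 3, and enter here through the spread between arrays in the common model alone. As a model, CD4-Cre deletes the floxed gene during thymic development, and therefore in CD8 as well as CD4 T cells, and the measured cells were from the spleen and not from the diseased kidney. Nothing in the labels says that replicate arrays are different mice, and the p-values therefore reflect the spread among these arrays alone, some of which may be technical.

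IKK2 is the main catalytic subunit of the kinase complex that phosphorylates IkB proteins, which marks them for degradation and frees canonical NF-kB dimers to enter the nucleus. In T cells this pathway lies downstream of the antigen receptor, of costimulation and of cytokine receptors, and it drives genes of activation, survival and effector function. Its targets include its own inhibitors, among them Nfkbia, which encodes IkB-alpha, and Tnfaip3, which encodes the deubiquitinase A20. Nephrotoxic serum binds to the glomerular basement membrane and starts a glomerulonephritis in which CD4+ T cells take part, so the comparison asks which T cell programmes still respond to the disease when IKK2 is missing.

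Levels are log2 intensities relative to the 75th percentile of the array, and differences are on the same log2 scale as nephritis minus none, with the standard error (SE) of a limma model of all 16 arrays. Of the 6 arrays, 5 lay on slide 1 and untreated replicate 3 lay on slide 2 and was scanned with it. Across genes, arrays correlated at 0.984 to 0.989 within the untreated and at 0.992 within the nephritic group. Between the groups they correlated at 0.983 to 0.989, so untreated arrays were about as alike to nephritic arrays as to each other. On the first principal component of the 6 arrays, which held 33.2% of the variance, untreated replicate 3 lay at 49.7 and the other arrays between -23.0 and 2.15. The T cell identity was alike in both groups: the mean level of 18 identity genes was 6.09 to 6.21 in untreated and 6.05 to 6.12 in nephritic arrays. Cd4 read 6.19, 6.03 and 5.96 without and 6.07, 5.86 and 5.90 with nephritis.

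The targeted gene did not differ between the conditions beyond the spread of the arrays. Ikbkb read 3.31, 2.88 and 2.99 in untreated replicates 1 to 3 and 3.02, 2.95 and 2.91 in nephritic replicates 1 to 3, and the groups overlapped. The difference was -0.10 (SE 0.11), with an exact two-sided permutation p of 0.7, where the smallest that 3 against 3 arrays allow is 0.1. No source used here places the probe inside the deleted part of the gene, so its level does not check the deletion. Ikbkg, which encodes the regulatory subunit NEMO and is intact in these mice, read -0.01, -0.00 and -0.06 without and -0.33, -0.53 and -0.36 with nephritis. Its groups did not overlap, but the difference of -0.38 (SE 0.10, adjusted p = 0.0918) did not pass the threshold.

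Few genes passed the threshold in IKK2 knockout T cells with nephritis, and the median size of their differences was 0.71. In the same limma model 2190 genes had an unadjusted p under 0.05. The genes that passed are therefore not a count of all that changed. The genes that rose included the glucocorticoid-inducible genes Tsc22d3 and Ddit4, as well as Txnip, Zfp36l2, Cd69, Cxcr4, Bcl2 and the NF-kB inhibitor genes Nfkbia and Tnfaip3. Those that fell included a group of chaperone genes around HSP90, such as Hsph1, Dnaja1, Stip1 and Fkbp4, and the lipid droplet gene Plin2. Of 14673 genes tested, 36 rose (0.245%) and 29 fell (0.198%) at an adjusted p under 0.05, 65 in all (0.443%). At least a 2-fold change was reached by 14 that rose and 8 that fell. The 3 nephritic and 3 untreated arrays did not overlap for any of the 65, as was also true of 9.02% of all genes in the upward and 9.17% in the downward direction. Across all genes the median difference was 0.01, and 51.2% of genes had a positive and 48.8% a negative difference.

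How many genes passed depended on single arrays and on the arrays that shared the fit. Slide as a block sets the nephritic arrays against untreated replicates 1 and 2 on the same slide. In that fit 54 genes passed (0.368%), 33 of them among the 65. All 65 kept their direction, which was fixed in advance, since their nephritic and untreated arrays did not overlap. A fit of the 6 arrays alone passed 0 genes (1629 at an unadjusted p under 0.05), as did slide 1 alone (1689). All 65 had an unadjusted p under 0.05 in both of these limma fits, whose lowest adjusted p was 0.0639 and 0.0641. The 65 had been selected on the same arrays, so these unadjusted values are no separate support for them. The count was 163 without untreated replicate 1, 31 without untreated replicate 2 and 54 without untreated replicate 3. It was 124 without nephritic replicate 1, 17 without nephritic replicate 2 and 8 without nephritic replicate 3. For this comparison, the fit without untreated replicate 3 is the same as slide as a block, so the 2 are not separate checks. Leaving out a Cre array, which enters only the spread, gave 36 without untreated Cre replicate 3, 38 without nephritic Cre replicate 2 and 45 to 61 without any of the other 4. The genes that passed without each of the 6 knockout arrays in turn were Cd69, Cxcr4, Nfkbia, Plin2, She, Tnfsf8 and Zfp36l2, 7 in all.

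**Figure D1:**
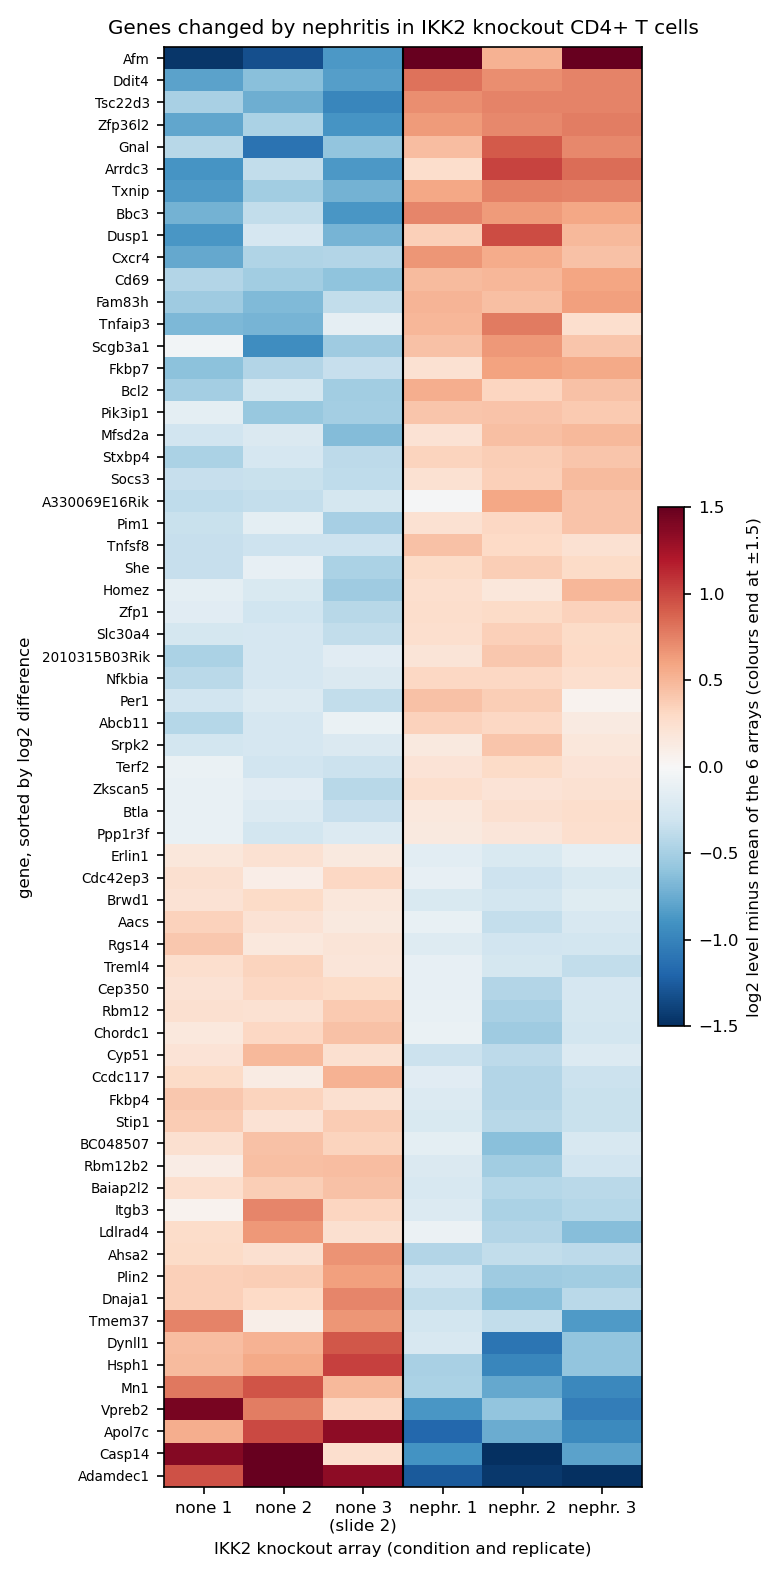
Levels of the 65 genes that changed with nephritis in IKK2 knockout T cells, as colour, in the 3 untreated (none) and 3 nephritic (nephr.) arrays. Each row is a gene, centred on its mean over the 6 arrays in log2 units. Rows are sorted by the difference from Afm at 2.43 to Adamdec1 at -2.87. Untreated replicate 3, the array on slide 2, lies on the same side of the nephritic arrays as the other untreated arrays in each row. That side was fixed in advance, since the groups did not overlap for any of these genes.

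Genes that glucocorticoid hormone induces in T cells formed the list with the most members called. Of 11 measured, 5 rose (0.245% of all genes did), 0 fell and 6 did not pass, and the list median was 0.58 against 0.01 for all genes. Like the other lists, this one was chosen with earlier results of these data known, so the share is a description without a test. Tsc22d3 encodes GILZ, a protein that restrains NF-kB and AP-1. Its level was 5.77, 5.53 and 5.28 in the untreated arrays and 6.96, 7.0 and 7.01 in the nephritic arrays, which lay close together and above all untreated arrays. It rose by 1.46 (SE 0.19, adjusted p = 0.0088), or 2.76-fold. Ddit4 encodes REDD1, an inhibitor of the mTORC1 growth kinase. It read 6.72, 6.89 and 6.69 without and 8.33, 8.22 and 8.26 with nephritis and rose by 1.5 (SE 0.23, adjusted p = 0.0199), or 2.84-fold. Cxcr4, the receptor for the chemokine CXCL12, read 0.67, 0.98 and 0.99 and then 2.10, 1.99 and 1.87, a rise of 1.10 (SE 0.14, adjusted p = 0.0088). Dusp1, a phosphatase that switches off MAP kinases, varied more, at -1.06, -0.44 and -0.89 without and 0.17, 0.79 and 0.30 with nephritis. It rose by 1.22 (SE 0.19, adjusted p = 0.022). Per1, a repressor of the circadian clock that hormone also induces, rose by 0.58 (SE 0.10, adjusted p = 0.0336), with nephritic replicate 3 the lowest of its group at 3.91.

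The members that did not pass were mixed. Klf9 differed by 0.61 (adjusted p = 0.0849) and Fkbp5, a co-chaperone of the hormone receptor, by 0.22 (adjusted p = 0.258). Sgk1, a kinase gene, differed by 0.16 (adjusted p = 0.855). Zbtb16, which encodes the transcription factor PLZF, went the other way, at -2.73, -2.64 and -2.15 without and -3.59, -3.76 and -3.64 with nephritis, and its groups did not overlap (difference -1.16, adjusted p = 0.0775). On the same slide the list median was 0.54, but 2 of the 11 members passed there, Cxcr4 and Tsc22d3. The number that passed was also 2 without nephritic replicate 2 or nephritic replicate 3, and 3 without untreated replicate 2.

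Several genes whose products restrain growth, metabolism or activation rose as well, a group put together after their values were seen. Txnip encodes a thioredoxin-binding protein that limits glucose uptake. Its level was 4.80, 5.14 and 4.95 in the untreated and 6.24, 6.41 and 6.41 in the nephritic arrays, a rise of 1.39 (SE 0.18, adjusted p = 0.0088). Arrdc3, an arrestin-domain gene of the same family, rose from -2.0, -1.48 and -1.98 to -0.85, -0.10 and -0.28, by 1.41 (SE 0.25, adjusted p = 0.0375). Zfp36l2 encodes an RNA-binding protein that promotes decay of messenger RNA. It read 5.74, 6.04 and 5.64 without and 7.16, 7.25 and 7.29 with nephritis, so that the groups lay far apart, and rose by 1.42 (SE 0.17, adjusted p = 0.0088). Pik3ip1, an inhibitor of PI3 kinase, rose by 0.83 (SE 0.13, adjusted p = 0.0215). Btla, an inhibitory receptor, rose by 0.45 (SE 0.08, adjusted p = 0.0325). It was the member called among 16 follicular helper T cell genes (0.245% of all genes were called higher). Of 20 naive and quiescent T cell genes, Txnip was the 1 that passed, upward as did 0.245% of all genes, 8 did not overlap in the upward direction (9.02% of all genes), and the list median was 0.20. Arrdc3, Pik3ip1 and Btla no longer passed with slide as a block (adjusted p = 0.0872, 0.0652 and 0.0762). Among members that did not pass, Tcf7, a transcription factor of naive cells, differed by 0.33, S1pr1, the receptor for exit from lymphoid organs, by 0.33, and Il7r by 0.33 (adjusted p = 0.193, 0.192 and 0.29).

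Both a survival gene and a death gene rose. Bcl2, which blocks mitochondrial apoptosis, read 4.25, 4.49 and 4.24 without and 5.30, 5.08 and 5.2 with nephritis and rose by 0.87 (SE 0.12, adjusted p = 0.0116). Bbc3, which encodes the pro-apoptotic protein PUMA, read 2.53, 2.88 and 2.37 and then 3.98, 3.88 and 3.82, a rise of 1.30 (SE 0.19, adjusted p = 0.0149). They were the 2 members called among 16 survival and death genes, whose median was 0.01 (0.245% of all genes were called higher).

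Among activation and cytokine genes few rises passed. Cd69, an early activation receptor that retains T cells in tissue, was even within both groups, at 2.84, 2.76 and 2.67 without and 3.76, 3.77 and 3.87 with nephritis. It rose by 1.04 (SE 0.12, adjusted p = 0.0088), or 2.06-fold. Cd69 and Dusp1 were the 2 called of 22 immediate early genes (0.245% of all genes were called higher), and the list median was -0.03. Nr4a1, which reports antigen receptor signalling, read 5.26, 5.23 and 5.15 without and 4.86, 5.00 and 4.87 with nephritis. That difference of -0.31 did not pass (adjusted p = 0.191), although the groups did not overlap. Tnfsf8, which encodes CD30 ligand, rose from 2.38, 2.43 and 2.42 to 3.17, 3.02 and 2.95, by 0.64 (SE 0.08, adjusted p = 0.0088). Of 16 genes of IL-2 receptor and JAK-STAT5 signalling and its feedback, 2 rose (0.245% of all genes did). Socs3, a feedback inhibitor of cytokine receptors, read 5.32, 5.33 and 5.29 and then 5.90, 6.02 and 6.14, a rise of 0.71 (SE 0.11, adjusted p = 0.0192). Pim1, a kinase induced by STAT5, rose by 0.64 (SE 0.11, adjusted p = 0.0375), but did not pass with slide as a block (adjusted p = 0.0872). The related Socs1 differed by 0.85 and Pim2 by 0.43, without passing (adjusted p = 0.0841 and 0.131).

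Within the NF-kB pathway the 2 genes that passed were inhibitors that the pathway itself induces. Nfkbia read 5.04, 5.19 and 5.23 in the untreated and 5.76, 5.75 and 5.70 in the nephritic arrays, with no overlap, and rose by 0.58 (SE 0.07, adjusted p = 0.0088), or 1.49-fold. Tnfaip3 read 2.05, 2.03 and 2.60 without and 3.22, 3.5 and 2.98 with nephritis. It rose by 1.01 (SE 0.16, adjusted p = 0.0253), with the smallest gap between untreated replicate 3, on slide 2, and nephritic replicate 3. Of 30 NF-kB target genes these 2 rose (0.245% of all genes did), 0 fell (0.198%) and 28 did not pass, with a list median of 0.01. The same 2 were called of 24 canonical components, and 0 of 16 noncanonical components passed (0.443% of all genes did). Bcl3 differed by 0.49, Nfkbiz by 0.51, the lymphotoxin gene Lta by -0.27 and the noncanonical subunit gene Nfkb2 by -0.16 (adjusted p = 0.162, 0.205, 0.204 and 0.63).

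The Nfkbia promoter is shown because it was the promoter among the changed genes that held the NF-kB motif, here GGGA, any base and TTTCC, searched on both strands. The sequence is from RefSeq (GRCm38.p6, chr12:55492618-55492897, minus strand), runs from 250 bases before the start of transcription to 30 bases after it, and has the match in capitals, at bases -29 to -20 with the first transcribed base counted as 0. Of 11708 tested genes with a promoter in the table, 0.538% held this motif, as did 1 of 31 genes that rose and 0 of 20 that fell.
Nfkbia: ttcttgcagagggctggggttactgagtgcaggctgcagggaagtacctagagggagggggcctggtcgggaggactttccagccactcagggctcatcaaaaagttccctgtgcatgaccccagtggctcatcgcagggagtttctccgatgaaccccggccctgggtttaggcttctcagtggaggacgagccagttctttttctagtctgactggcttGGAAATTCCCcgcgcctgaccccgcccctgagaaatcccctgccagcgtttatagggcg
A match describes the letters of this window and is not a measured binding site.

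Some chaperone genes fell. Hsph1 encodes a large heat shock protein that recharges the HSP70 chaperone. Its level was 3.92, 4.01 and 4.46 in the untreated and 2.95, 2.46 and 2.84 in the nephritic arrays, and the difference was -1.38 (SE 0.21, adjusted p = 0.0184), 2.6-fold lower with nephritis. Dnaja1, an HSP40 co-chaperone of HSP70, read 6.74, 6.69 and 7.12 and then 6.02, 5.75 and 5.98, a difference of -0.93 (SE 0.14, adjusted p = 0.0184). These were the 2 called of 12 heat shock genes measured, where 0.198% of all genes were called lower. The list median was -0.35, and 8 of the 12 did not overlap in the downward direction (9.17% of all genes). Dnajb1, another HSP40 gene, read 6.26, 6.15 and 6.48 without and 5.39, 5.47 and 5.50 with nephritis and just missed the threshold (-0.84, adjusted p = 0.0597). Hspa4l differed by -0.72, the HSP90 gene Hsp90aa1 by -0.40 and the mitochondrial chaperonin gene Hspd1 by -0.30 (adjusted p = 0.0841, 0.15 and 0.108). The small heat shock gene Hspb1 was the member with a positive difference, 0.75 (adjusted p = 0.493).

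Outside the list, 4 further changed genes whose proteins bind or regulate HSP90 fell, a group put together after their values were seen. Stip1 encodes the adaptor HOP, which links HSP70 to HSP90. It read 2.89, 2.72 and 2.88 without and 2.27, 2.08 and 2.17 with nephritis, a difference of -0.66 (SE 0.09, adjusted p = 0.0088). Fkbp4, an immunophilin of HSP90 complexes with steroid receptors, read 1.55, 1.48 and 1.38 and then 0.94, 0.71 and 0.81, a difference of -0.65 (SE 0.10, adjusted p = 0.0178). Chordc1, an HSP90-binding co-chaperone, differed by -0.60 (SE 0.11, adjusted p = 0.0419), and Ahsa2, related to an activator of the HSP90 ATPase, by -0.80 (SE 0.12, adjusted p = 0.0149). In each of the 6 genes untreated replicates 1 and 2, on the slide of the nephritic arrays, also lay above all nephritic arrays. This was fixed in advance, since their nephritic and untreated arrays did not overlap. With slide as a block the difference of Hsph1 was -1.21, of Dnaja1 -0.80 and of Stip1 -0.63 (adjusted p = 0.0442, 0.0381 and 0.0258), whereas Chordc1 at -0.53 no longer passed (adjusted p = 0.0969). Without nephritic replicate 2 or nephritic replicate 3, neither Hsph1 nor Dnaja1 passed (adjusted p = 0.0763 and 0.0673 for each gene).

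The heat shock motif, here GAA, TTC and GAA with 2 free bases between the blocks, searched on both strands of the same promoter windows, was present in 2 of 20 genes that fell, Chordc1 and Hsph1, in 0 of 31 that rose and in 0.521% of all tested genes with a promoter. Both are printed to show the motif and its place, from RefSeq (GRCm38.p6), with matches in capitals. Chordc1 lies at chr9:18292017-18292296 on the plus strand, and its 3 matches overlap each other between bases -4 and 18. Hsph1 lies at chr5:149636286-149636565 on the minus strand, with 1 match at bases 15 to 27.
Chordc1: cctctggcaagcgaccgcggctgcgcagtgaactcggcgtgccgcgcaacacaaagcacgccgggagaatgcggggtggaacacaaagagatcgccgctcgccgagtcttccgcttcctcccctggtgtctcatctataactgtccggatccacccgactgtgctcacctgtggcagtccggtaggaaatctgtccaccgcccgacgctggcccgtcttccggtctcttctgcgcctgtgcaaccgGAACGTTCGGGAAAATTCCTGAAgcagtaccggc
Hsph1: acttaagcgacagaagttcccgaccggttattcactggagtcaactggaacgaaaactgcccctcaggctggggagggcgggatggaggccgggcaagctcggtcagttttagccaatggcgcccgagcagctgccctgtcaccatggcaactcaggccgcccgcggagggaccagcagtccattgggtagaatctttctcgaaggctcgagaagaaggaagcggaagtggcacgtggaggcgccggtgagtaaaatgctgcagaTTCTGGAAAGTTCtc
In both windows the matches lie at or just after the start of transcription.

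**Figure D2:**
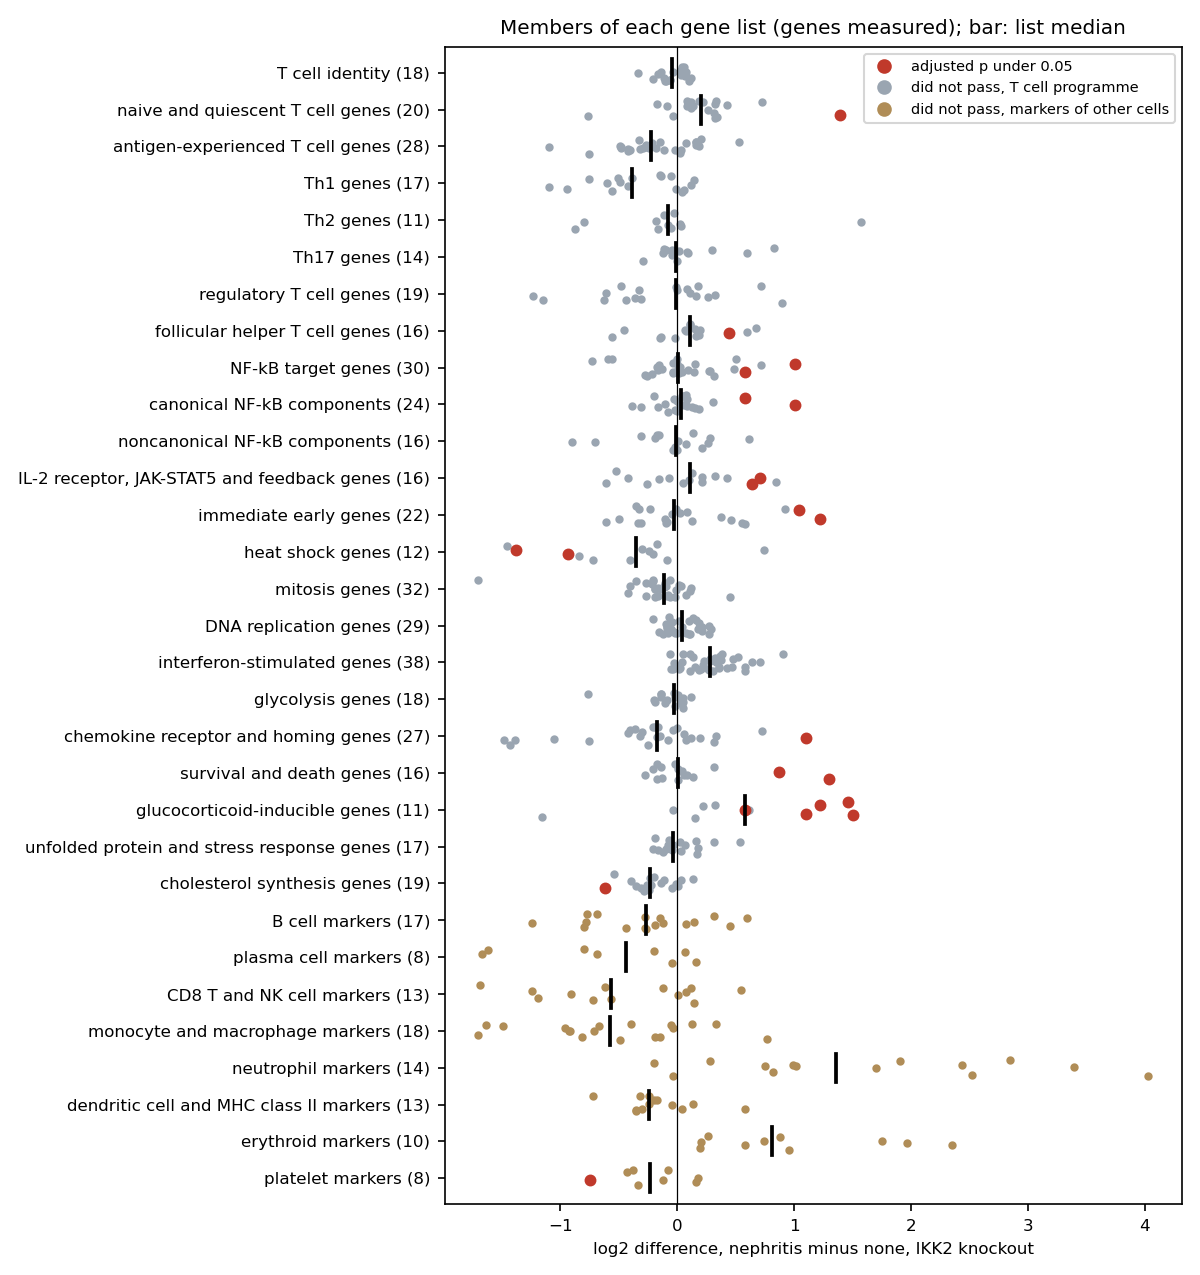
Log2 difference, nephritis minus none, of each member of 31 gene lists in IKK2 knockout T cells, with the number of genes measured in brackets. Each point is a gene, red where its adjusted p was under 0.05, and the black bar is the list median; it is 0.58 for glucocorticoid-inducible genes, -0.35 for heat shock genes and 1.36 for neutrophil markers, which hold no red point.

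A few lipid genes fell beside the chaperones. Plin2 coats lipid droplets. It read 0.92, 0.94 and 1.18 without and 0.28, 0.03 and 0.04 with nephritis, a difference of -0.90 (SE 0.10, adjusted p = 0.0088). Cyp51, an enzyme of cholesterol synthesis, read 0.30, 0.59 and 0.34 and then -0.22, -0.29 and -0.11, a difference of -0.62 (SE 0.10, adjusted p = 0.0215). It was the 1 called of 19 cholesterol synthesis genes (0.198% of all genes were called lower). The list median was -0.23, and 9 of the 19 did not overlap in the downward direction (9.17% of all genes), among them Lss at -0.54 and Idi1 at -0.35 (adjusted p = 0.0841 and 0.0845). Aacs, which activates acetoacetate for lipid synthesis, differed by -0.47 (SE 0.08, adjusted p = 0.0269), and Erlin1, a lipid raft protein of the endoplasmic reticulum, by -0.36 (SE 0.06, adjusted p = 0.0382). Mfsd2a, a transporter of lysophospholipids, rose by 0.77 (SE 0.14, adjusted p = 0.0375). Erlin1 and Mfsd2a did not pass with slide as a block (adjusted p = 0.0712 and 0.0824). Cyp51 did not pass without untreated replicate 2, nephritic replicate 2 or nephritic replicate 3 (adjusted p = 0.0679, 0.103 and 0.0673).

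The largest falls were in dim genes, several of them known from other cell types, and some smaller falls are given beside them. Adamdec1, a secreted metalloproteinase of macrophages and dendritic cells, was above background on 3 of 3 untreated and 0 of 3 nephritic arrays. Its measured levels were -3.68, -2.64 and -3.29 without and -5.89, -6.08 and -6.25 with nephritis, which gives a level at least 2.36-fold lower with nephritis (adjusted p = 0.0139). That bound sets the mean of the bright group against the lowest signal that counted as above background, or the probe's own signal where higher, and it holds for the processed signal: with normexp background correction the difference was -0.54, or 1.46-fold, and did not pass (adjusted p = 0.151). Apol7c, an apolipoprotein L gene expressed in dendritic cells, was above background on 3 of 3 untreated and 1 of 3 nephritic arrays, so the size of its fitted difference is uncertain; it was -1.92 (SE 0.37, adjusted p = 0.0494). Treml4, a receptor of myeloid cells, differed by -0.51 (SE 0.10, adjusted p = 0.0472). Vpreb2, a part of the pre-B cell receptor, read -1.31, -1.97 and -2.43 and then -3.61, -3.33 and -3.77, a difference of -1.66 (SE 0.28, adjusted p = 0.0325). Casp14, a caspase of the epidermis, read -1.46, -1.18 and -2.59 and then -3.73, -4.41 and -3.64, a difference of -2.19 (SE 0.41, adjusted p = 0.0442). Mn1, a transcriptional coregulator, differed by -1.48 (SE 0.24, adjusted p = 0.025) and Dynll1, a dynein light chain, by -1.28 (SE 0.20, adjusted p = 0.0215). Tmem37 differed by -1.0 (SE 0.19, adjusted p = 0.048) and Ldlrad4, an inhibitor of TGF-beta signalling, by -0.78 (SE 0.14, adjusted p = 0.0442). Itgb3, the integrin beta-3 chain, was not dim and read 4.36, 5.04 and 4.64 and then 4.10, 3.84 and 3.88. Its difference was -0.74 (SE 0.14, adjusted p = 0.0491), close to the threshold. Casp14 and Mn1 were above background on 2 of 3 nephritic arrays. With normexp the differences were smaller and did not pass for Apol7c (-0.56), Vpreb2 (-0.69), Casp14 (-0.79), Mn1 (-0.46), Treml4 (-0.32), Tmem37 (-0.73) and Ldlrad4 (-0.30), while Dynll1 passed at -0.62 (adjusted p = 0.0232). Apol7c, Treml4, Dynll1, Tmem37, Ldlrad4 and Itgb3 did not pass with slide as a block (adjusted p = 0.104, 0.0758, 0.0604, 0.101, 0.0652 and 0.0872).

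Among rises of dim genes, Afm, a vitamin E-binding plasma protein, was above background on 0 of 3 untreated and 3 of 3 nephritic arrays. Its measured levels were -6.39, -6.26 and -5.80 and -3.4, -4.41 and -3.36, at least 1.66-fold higher with nephritis (adjusted p = 0.0215) for the processed signal. Gnal, a G protein alpha subunit, rose from -1.42, -2.11 and -1.60 to -0.54, -0.09 and -0.29, a difference of 1.41 (SE 0.20, adjusted p = 0.0149). Fam83h rose by 1.04 (SE 0.16, adjusted p = 0.0192), Scgb3a1, a secretoglobin, by 1.0 (SE 0.18, adjusted p = 0.0382) and Fkbp7, a prolyl isomerase of the endoplasmic reticulum, by 0.93 (SE 0.13, adjusted p = 0.0139). With normexp the differences of Afm (1.36-fold), Fam83h, Scgb3a1 and Fkbp7 did not pass, at 0.44, 0.37, 0.39 and 0.46, and Gnal did, at 0.99. Scgb3a1 did not pass with slide as a block (adjusted p = 0.0875).

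Markers of other cells also moved between the groups, and no cell count was measured. In bulk RNA, fewer cells of a type and less RNA per cell cannot be told apart. The mean level of 14 neutrophil markers was -2.15, -2.06 and -2.56 in the untreated and -1.29, 0.61 and -1.27 in the nephritic arrays. The groups did not overlap, and nephritic replicate 2 stood far above the rest. The list median was 1.36, or 0.64 without nephritic replicate 2, 0.56 with normexp background correction and 0.71 in the authors' matrix, and 8 of 14 members did not overlap in the upward direction (9.02% of all genes), but 0 passed (S100a8 2.52, Camp 2.85, Ngp 3.39; adjusted p = 0.303, 0.135 and 0.158). The 18 monocyte and macrophage markers averaged 0.00, 0.43 and 0.10 without and -0.32, -0.16 and -0.63 with nephritis, with 7 members non-overlapping downward (9.17% of all genes) and a median of -0.58. The 17 B cell markers averaged -0.41 to -0.02 and -0.75 to -0.24, and the 13 CD8 T and NK cell markers -0.38 to -0.23 and -1.05 to -0.37. The 8 plasma cell markers averaged -0.77 to -0.12 and -1.16 to -0.80, and the 13 dendritic cell and MHC class II markers 1.85 to 2.36 and 1.71 to 2.17. Erythroid markers averaged -2.78 to -1.18 and -1.27 to -0.46 (10 genes), and platelet markers -0.54 to -0.30 and -0.89 to -0.22 (8 genes). Apart from Itgb3, no member of these lists passed in the limma model. In that model 0.443% of all genes passed and 2190 genes reached an unadjusted p under 0.05. Every measured member was above background on at least 1 of the 6 arrays. The part of these cells in the falls of Adamdec1, Apol7c, Treml4, Vpreb2 and Itgb3, and in the other changes, was not tested.

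**Figure D3:**
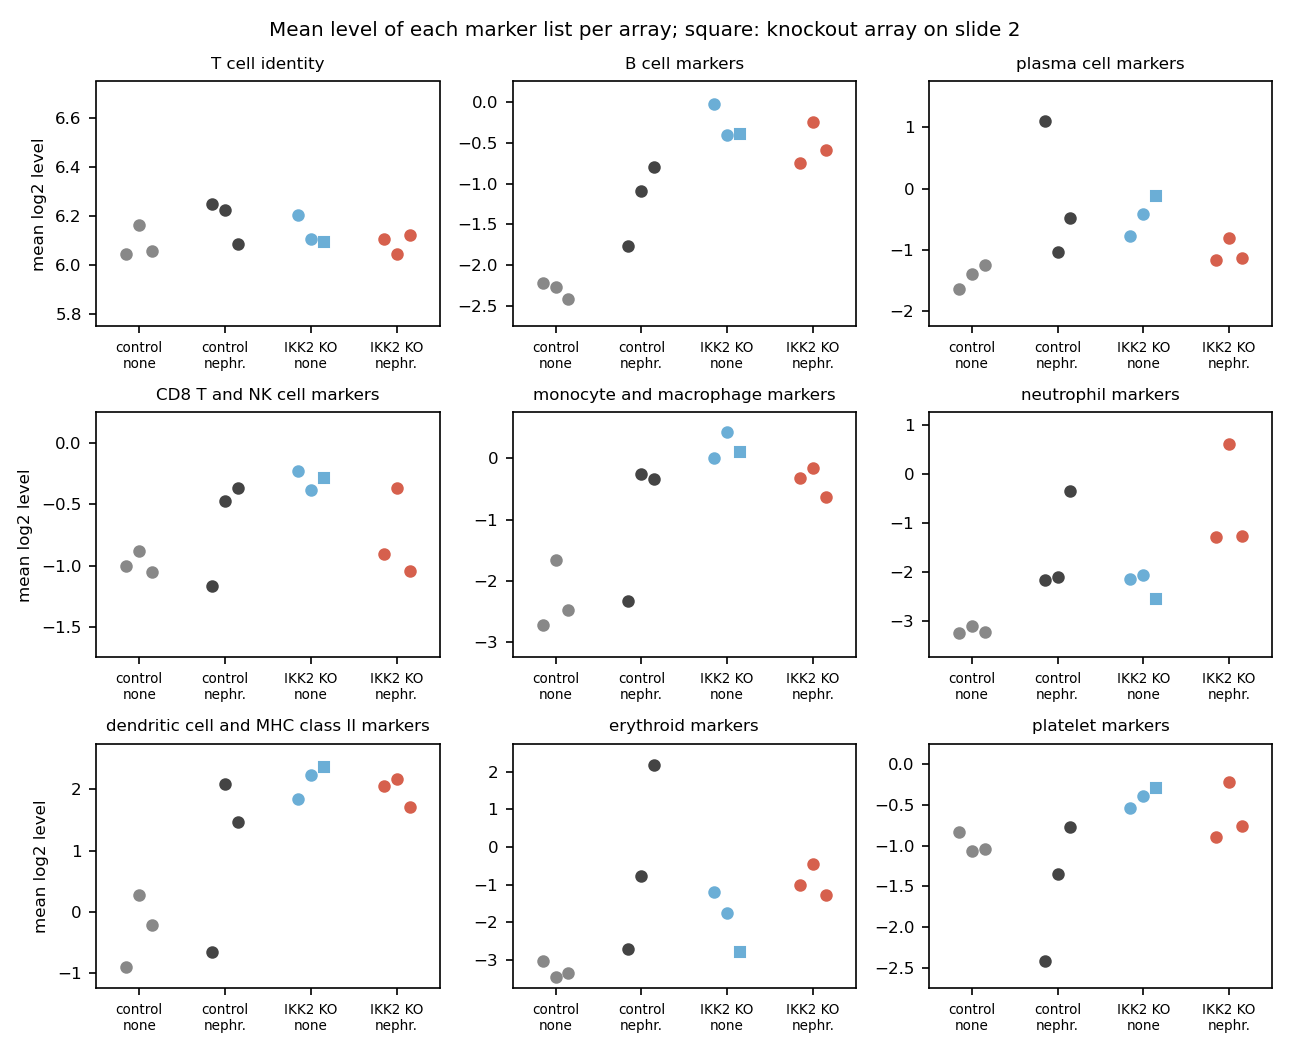
Mean log2 level of T cell identity genes and of 8 marker lists of other cells on each array, for Cre control and IKK2 knockout T cells without (none) and with nephritis (nephr.); the vertical axes differ between panels. Points are arrays and the square is the knockout array on slide 2: neutrophil markers lie higher in all 3 nephritic knockout arrays (-1.29 to 0.61) than in the untreated ones (-2.56 to -2.06), and monocyte and macrophage markers lower (-0.63 to -0.16 against 0.00 to 0.43).

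No gene of the helper T cell lists passed in the knockout, where 0.443% of all genes did. At that share a list of this size would mostly hold none, and no list was tested as a whole. None of 17 Th1, 11 Th2, 14 Th17 or 19 regulatory T cell genes passed, nor of 28 antigen-experienced T cell genes. Tbx21, the master regulator of Th1 cells, read 2.04, 1.29 and 3.17 without and 1.81, 0.88 and 0.51 with nephritis, so the groups overlapped (adjusted p = 0.264), and Foxp3, that of regulatory T cells, differed by -0.33 (adjusted p = 0.708). The Th1 median was -0.39 over all arrays and 0.00 on the same slide, and untreated replicate 3 had the highest list mean of the 6 arrays, at 1.89. None of 32 mitosis, 29 DNA replication, 18 glycolysis or 17 unfolded protein response genes passed (0.443% of all genes did). Their medians were -0.11, 0.04, -0.03 and -0.04. Of 27 chemokine receptor and homing genes, Cxcr4 was the 1 that passed, upward as did 0.245% of all genes.

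The response of the knockout was then set against that of Cre controls. In the controls 591 genes changed (4.03%), and 5 of the 65 were among them. She, an adaptor gene, rose in both genotypes, by 0.63 and 0.54, and Abcb11, the bile salt transporter gene, by 0.52 and 0.41. Vpreb2 fell in both, with differences of -1.66 and -1.42, as did Baiap2l2, with -0.71 and -0.82. Fkbp4 fell in the knockout and rose in the controls (0.46). Of the 65, 60 had a control response smaller than 0.5 in either direction. The share of all genes with so small a control response was not counted, so this cannot be called particular to the 65. Untreated control arrays all lay on slide 2 and nephritic control arrays all on slide 1, so nephritis and slide cannot be told apart in the controls.

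The difference of the responses, tested in the same limma model, passed for 166 genes (1.13%), 44 with the response of the knockout above (0.3%) and 122 with it below that of the controls (0.831%). Scaling on the probes detected on all arrays gave 52 above and 68 below. Among the 65, it passed for 33, 19 that rose and 14 that fell. The 65 had been selected on the knockout response, which is part of this difference, so that number is no separate support for them. The response of Tsc22d3 was above that of the controls by 1.65 (SE 0.27, adjusted p = 0.0314), that of Cxcr4 by 1.24 (SE 0.20, adjusted p = 0.0314) and that of Txnip by 1.41 (SE 0.26, adjusted p = 0.0381). For Hsph1 the knockout response lay at -1.77 (SE 0.29, adjusted p = 0.0314) relative to the controls, for Plin2 at -1.17 (SE 0.14, adjusted p = 0.0131) and for Fkbp4 at -1.11 (SE 0.14, adjusted p = 0.0131). For Nfkbia, Tnfaip3 and Bcl2 the difference did not pass (adjusted p = 0.0529, 0.0739 and 0.0539). In the model with slide as a block, only the untreated knockout group had arrays on both slides 1 and 2. The slide correction of the control response therefore rested on untreated knockout replicate 3 alone, set against replicates 1 and 2. That array lay apart on the first principal component. With slide as a block, 9 of the 33 passed: Ahsa2, Dnaja1, Fkbp4, Hsph1, Plin2, Stip1, Stxbp4, Tsc22d3 and Zkscan5. Cxcr4 and Txnip did not (adjusted p = 0.0942 and 0.0988). The largest fitted differences above were in Majin (2.11), Gnal (1.72), Arrdc3 (1.71), Ppp1r14bl (1.69), Gm9903 (1.67) and Chrm3 (1.65). Those below were in Mgst1 (-4.13), Fn1 (-3.95), Ear2 (-3.91), Vpreb3 (-3.81), Ear1 (-3.76) and Gfra2 (-3.74). None of these 12 passed with slide as a block (adjusted p = 0.0632 to 0.154). In Majin, Ppp1r14bl, Chrm3, Mgst1 and Ear1 at least 1 of the 4 groups was above background on no array, and Gfra2 was above background on 1 of 3 untreated control arrays, so their fitted sizes and order are not exact.

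In those 6 genes below, the control response passed, and that of the knockout did not. Ear2, a ribonuclease gene of eosinophils and macrophages, read -4.61, -2.57 and -4.30 in untreated and -1.96, 0.28 and 0.35 in nephritic controls, against 0.46, 0.84 and 0.60 and -0.10, 0.38 and 0.03 in the knockout. Vpreb3, a B cell marker, read -2.59, -2.62 and -3.12 and then -1.19, 0.56 and 0.02 in the controls. The 17 B cell markers averaged -2.41 to -2.22 in untreated and -1.76 to -0.80 in nephritic controls, and the 18 monocyte and macrophage markers -2.71 to -1.66 and -2.33 to -0.26. Their part in these differences was not tested. With slide as a block 38 genes passed. The count was 391 without nephritic Cre replicate 1, 349 without untreated knockout replicate 3, 69 without untreated knockout replicate 1 and 35 without untreated knockout replicate 2. It was 32, 59 and 13 without untreated Cre replicates 1, 2 and 3, 15 and 30 without nephritic Cre replicates 2 and 3, and 21 and 9 without nephritic knockout replicates 2 and 3.

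**Figure D4:**
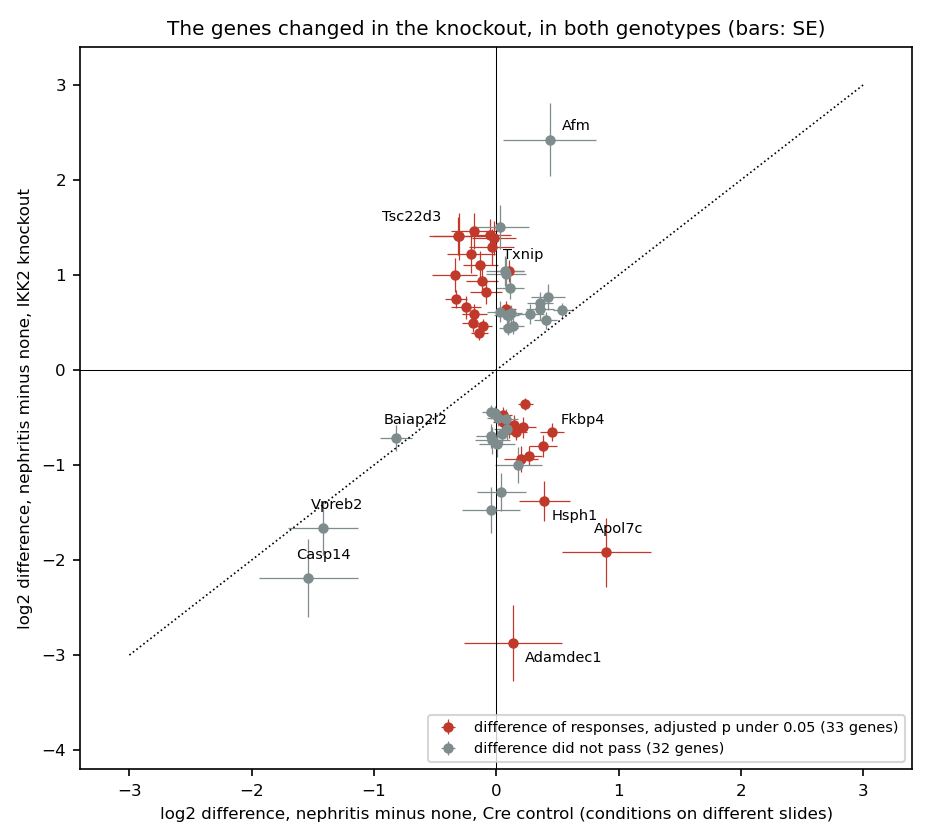
Response to nephritis, as log2 difference, of the 65 genes changed in the knockout, in Cre controls (horizontal) and in IKK2 knockout T cells (vertical), with SE bars and a dotted line of equal response. In 33 genes, in red, the difference of the responses passed an adjusted p of 0.05; Casp14, Vpreb2 and Baiap2l2 lie low in both genotypes, and most other points lie near 0 on the horizontal axis.

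The knockout levels of the changed genes were also set beside those of the control arrays, which is a description without a test. The control range runs from the lowest to the highest of the 6 Cre arrays, and a knockout group counts as outside it where all 3 of its arrays lie beyond the same end. Of the 29 genes that fell, 19 had the untreated knockout group alone outside that range, 3 the nephritic group alone, 4 both and 3 neither. Of the 36 that rose, 9 had the untreated group alone outside, 19 the nephritic group alone, and 8 both. The same counts were not made over all genes. Since the knockout groups did not overlap in any of the 65, their selection alone favours a group lying outside the range. All 6 chaperone genes named above, and Plin2, Cyp51 and Aacs, were above the control range without nephritis and overlapped it with nephritis. Hsph1, for example, read 2.43, 2.62 and 2.47 in untreated and 2.92, 3.0 and 2.77 in nephritic controls, against 3.92, 4.01 and 4.46 in untreated knockout arrays. By contrast, Tsc22d3, Ddit4, Dusp1, Cxcr4, Per1, Txnip, Pik3ip1, Bcl2, Cd69, Tnfsf8, Socs3 and Pim1 overlapped the control range without nephritis and were above it with nephritis. Cd69 read 2.47, 2.89 and 2.42 and 2.68, 2.79 and 2.63 in the controls, so its nephritic knockout arrays stood above all others. Zfp36l2 and Bbc3 went from below the control range to above it.

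The NF-kB inhibitor genes took another course. Nfkbia read 5.94, 5.96 and 5.97 in untreated and 6.09, 6.10 and 5.99 in nephritic controls, so that the knockout arrays were below the control range in both conditions and nearer to it with nephritis. Tnfaip3 read 2.89, 3.11 and 2.87 and 3.14, 3.03 and 2.93, and its knockout arrays were below the range without nephritis and overlapped it with nephritis.

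**Figure D5:**
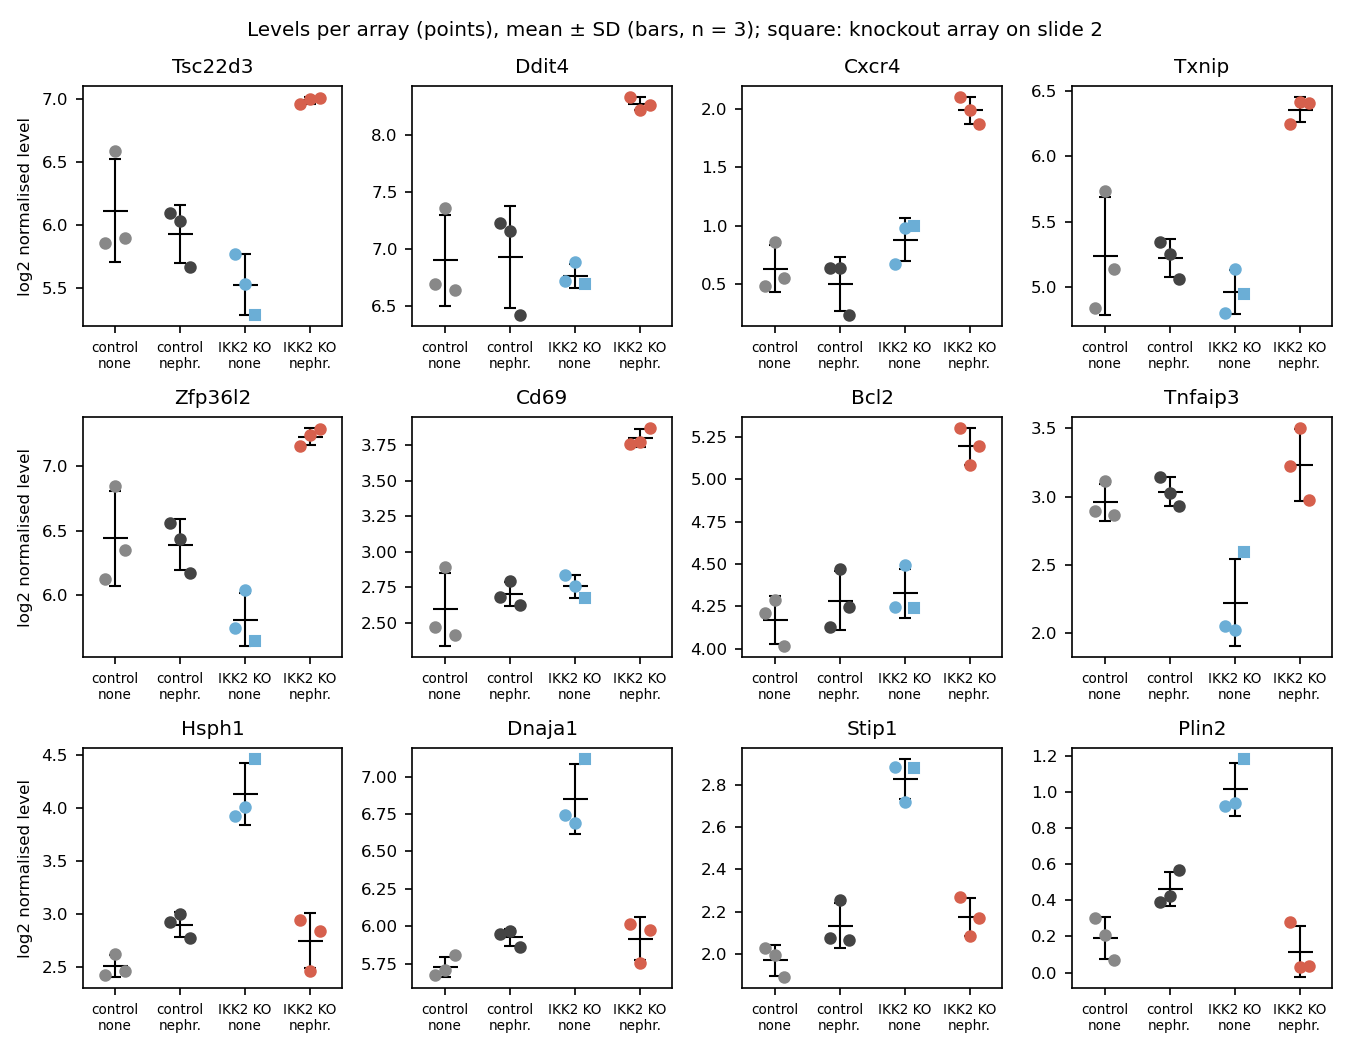
Log2 levels of 12 genes on each array of Cre control and IKK2 knockout T cells without (none) and with nephritis (nephr.), with the mean and SD of each group (n = 3); the vertical axes differ between panels. The nephritic knockout arrays stand above all others for Tsc22d3, Ddit4, Cxcr4, Txnip, Zfp36l2, Cd69 and Bcl2, whereas the untreated knockout arrays stand apart as high for Hsph1, Dnaja1, Stip1 and Plin2 and as low for Tnfaip3.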

How the data were processed

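The authors deposited, per the file headers, Agilent Feature Extraction output of 1-colour arrays, whose processed spot intensity on a linear scale was already background-subtracted; the headers give version 10.7.3.1 and the submitters' processing notes 10.5. A matrix of log2 values was deposited by the authors as well, with medians of 5.65 to 5.68, whose normalisation and background treatment are not given in the sources used here; it served as an alternative. Here control spots and outlier spots (103 to 246 per array) were left out, each array's 75th percentile was subtracted from the log2 processed intensity, and spots of a probe were averaged. Of each array's spots, 48.9% to 59.8% were well above background, no spot was saturated, and 2 or 3 arrays per group limit the precision. Negative controls read 40.5 to 46.0 on slide 1 and 19.5 to 22.4 on slide 2.

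A gene was its brightest probe out of 34936 that were well above background on 2 or more of the 16 arrays. Of 55681 probes, 27235 had 1 symbol and 28446 none, with names updated through RefSeq GRCm38.p6 (the headers name mm9). Another probe was available for 11 of the 65 changed genes. All 13 such probes had the same sign, but only 8 of them had an unadjusted p under 0.05 in limma. A model of 6 group means was fitted to 16 arrays with limma 3.58.1 in R 4.3.3 (lmFit, eBayes), two-sided, with Benjamini-Hochberg adjustment over 14673 genes and a threshold of 0.05. Tables and plots used Python 3.11.15, numpy 2.4.6, pandas 2.3.3 and matplotlib 3.10.9, and the fit was tested on simulated data. No missing value touched a changed gene.

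Members and gene lists (31 lists, 534 genes, 525 with a probe) were chosen with earlier results of these data known. Named genes were the targeted genes, list members, the 12 largest rises and 12 largest falls, and the 6 largest differences from the control response in each direction; a further rule, for genes passing on slide 1 alone, named none, and other changed genes and the HSP90 group were chosen after their values were seen. Alternatives changed background correction (normexp on median in place of mean signals, the columns at hand), normalisation, source, filter, probe, slide, samples and replicates. Arrays with the same replicate number did not deviate together, so the numbers were not used as pairs. No normalisation moved the median of all genes beyond -0.01 to 0.02.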

Additional observations from a re-analysis of the deposited data

Results flagged for a closer look

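The difference of the response to nephritis, knockout minus Cre control in log2 units, passed an adjusted p of 0.05 in the limma model for each of the 46 genes below. With slide as a block 9 of the 46 passed: Ahsa2, Dnaja1, Fkbp4, Hsph1, Plin2, Stip1, Stxbp4, Tsc22d3 and Zkscan5. The slide correction in that fit rested on untreated knockout replicate 3 alone, set against replicates 1 and 2. In 7 genes (Adamdec1, Apol7c, Chrm3, Ear1, Majin, Mgst1 and Ppp1r14bl) at least 1 of the 4 groups was above background on no array, so that their fitted values are not exact sizes. In the controls, slide and nephritis cannot be told apart, and no cause of these differences was tested.

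Above the control response were the quiescence, hormone-induced and activation genes Tsc22d3 at 1.65, Zfp36l2 at 1.47, Dusp1 at 1.42, Txnip at 1.41, Arrdc3 at 1.71, Cxcr4 at 1.24, Cd69 at 0.94, Pik3ip1 at 0.91 and Tnfsf8 at 0.56, and the death gene Bbc3 at 1.33. Other genes that rose in the knockout and lay above were Gnal at 1.72, Scgb3a1 at 1.34, Stxbp4 at 1.07, Fkbp7 at 1.05, A330069E16Rik at 0.91, 2010315B03Rik at 0.77, Srpk2 at 0.68, Zkscan5 at 0.57 and Ppp1r3f at 0.53. Genes that did not pass in the knockout itself but whose responses lay above were Majin at 2.11, Ppp1r14bl at 1.69, Gm9903 at 1.67 and Chrm3 at 1.65. Majin was above background on 0 of the 6 knockout arrays.

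Below the control response were the chaperone and co-chaperone genes Hsph1 at -1.77, Ahsa2 at -1.18, Dnaja1 at -1.13, Fkbp4 at -1.11, Stip1 at -0.82 and Chordc1 at -0.82. The lipid genes were Plin2 at -1.17, Cyp51 at -0.72, Erlin1 at -0.60, Idi1 at -0.56 and Aacs at -0.52. Other genes that fell in the knockout were Adamdec1 at -3.01, Apol7c at -2.82, Rbm12 at -0.72 and Cep350 at -0.60. Genes known from B cells or myeloid cells, which rose in the controls and did not pass in the knockout, were Ear2 at -3.91, Ear1 at -3.76, Vpreb3 at -3.81 and Cd79b at -2.49. The remaining genes were Mgst1 at -4.13, Fn1 at -3.95, Gfra2 at -3.74 and Ikbkg at -0.78; all 4 rose in the controls.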

How the results depend on the processing

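All 65 changes kept their direction in each alternative that measured them. Because their groups did not overlap, leaving out arrays or setting slide as a block could not have turned a sign. In 648 of 1555 gene and setting pairs the threshold was no longer met, and the cause was not tested. Against 65 genes, the count was 41 with normexp background correction, 139 with the percentile over probes detected on all arrays, 161 with quantile normalisation, 33 with no filter on dim probes, 154 with probes above background on all 6 knockout arrays, and 73 with the authors' matrix. It was 0 with slide 1 alone, 0 with the 6 arrays alone and 0 in limma with the replicate number as a block (1292 genes at an unadjusted p under 0.05), fits with fewer arrays. Leaving out each of the 12 knockout and Cre arrays in turn gave 8 to 163; the 4 NEMO arrays were not left out. Same-numbered arrays correlated at -0.16, 0.13 and -0.20 in their deviations, so the replicate block has no basis in pairing.

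Against 166 genes whose response differed from the controls, the count was 16 with normexp, 31 with the authors' matrix, 10 with no filter, 254 with probes above background on all 6 knockout arrays, 38 with slide as a block, 11 with the arrays compared alone and 1 with the replicate block (2377 at an unadjusted p under 0.05). Leaving out each of the same 12 arrays gave 9 to 391. The Ikbkb difference ran from -0.19 to 0.024 with each of them left out, and turned sign without untreated replicate 1. Cd69, Cxcr4, Plin2, Tnfsf8 and Zfp36l2 passed in all 21 settings apart from the 3 fits with fewer arrays. The glucocorticoid list median was 0.38 with normexp and 0.50 to 0.67 without single arrays. Dim signals limit Adamdec1 and Afm to bounds, which normexp values (1.46-fold and 1.36-fold) did not reach.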

Other observations

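Interferon-stimulated genes, which antiviral sensing and type I interferon induce, mostly read higher in the nephritic knockout arrays. None of the 38 passed in limma, where 0.443% of all genes did. A positive difference was seen in 34 of 38, beside 51.2% of all genes. The list mean was 3.01, 2.75 and 2.99 without and 3.11, 2.85 and 3.63 with nephritis, so that the groups overlapped and nephritic replicate 3 was the highest. Ifit3 differed by 0.90 (SE 0.42, adjusted p = 0.345) and the RNA sensor gene Dhx58 by 0.58 (SE 0.21, adjusted p = 0.216).

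Some single genes of helper and tissue-homing T cells came near the threshold. Il4, the Th2 cytokine, read -3.31, -3.56 and -2.97 without and -1.22, -2.69 and -1.20 with nephritis (difference 1.58, adjusted p = 0.0627). Itga1, the collagen-binding integrin chain, read -0.11, -0.87 and -1.31 and then -2.61, -2.14 and -1.98 (difference -1.48, adjusted p = 0.0747). Itgb1, its partner chain, read 1.92, 1.07 and 1.95 and then 0.89, 0.75 and 1.03 (difference -0.76, adjusted p = 0.0907). The groups did not overlap for any of these 3 genes, as was also true of 9.02% of all genes upward and 9.17% downward. The 3 were named after their values were seen. Another probe differed by -0.80 for Itga1 and by -0.70 for Itgb1 (limma, unadjusted p = 0.0761 and 0.0081).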
